A study of Sus scrofa with 13 samples.

Results

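The 10 genes described here, grouped as basement membrane genes of the hypoblast, encode parts of basement membrane or help to make it. They are COL4A1, COL4A2, COL18A1, SERPINH1, LAMA1, LAMB1, LAMC1, NID1, HSPG2 and SPARC, found by gene symbol in a table of 28232 genes, where each had 1 row. They were selected on levels already measured in these libraries, so every comparison of them that holds hatched blastocysts is given as a description, with no p-value or call. The comparisons of IVF with in vivo blastocysts and of IVF blastocysts with 4-cell embryos were tested. Their fits also held hatched libraries, which shared in setting the spread, the scaling and the filter on low counts. No list here is independent of earlier results of these data. Calls of the other lists in comparisons that hold hatched blastocysts come from the same fits, describe those lists and support nothing.

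A basement membrane is a thin sheet of extracellular matrix under an epithelium. It has a network of laminin, built from trimers of an alpha, a beta and a gamma chain, and a network of type IV collagen, and both are tied together by nidogen and by the heparan sulfate proteoglycan perlecan. In the blastocyst the hypoblast, or primitive endoderm, lines the inner side of the cavity. In the mouse its parietal derivative secretes large amounts of laminin and type IV collagen into Reichert's membrane, and the same matrix separates the hypoblast from the epiblast.

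Libraries were made from the messenger RNA of pooled pig embryos in 5 groups: hatched blastocysts from in vitro fertilisation (IVF, 3 libraries), hatched blastocysts grown in vivo (2 libraries), IVF blastocysts (3), in vivo blastocysts (2) and IVF 4-cell embryos (3). The labels name no genotype, transgene, breed, day of collection or number of embryos in a pool, and all blastocyst libraries are whole embryos, so hypoblast was not separated from trophectoderm and epiblast and the transcripts cannot be placed in a cell type. Nothing in the labels says that libraries of a group came from separate animals or fertilisation rounds, so a p-value reflects spread between libraries that may be technical, and animals, embryo age and day may go with origin. In such bulk RNA, fewer hypoblast cells and less RNA per cell cannot be told apart.

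Totals lay between 33259311 and 39273867 counts per library. A floor of 3 counts, which covers counting error only, was 0.0764 to 0.0902 CPM. CPM, the counts of a gene scaled to the total of its library, is used below for a gene's level, without correction for gene length. Trophectoderm markers summed to between 20839 and 38454 CPM in the 10 blastocyst libraries, and CDX2 and KRT18, which mark that layer, had no count in the 4-cell libraries. In vivo hatched libraries are called the unnumbered library, whose count column carried no replicate number, and library 2. Library 1 of the 4-cell embryos stood apart from the others of its group, with r of 0.867 and 0.862 across genes on the log2(CPM + 1) scale, against 0.947 between those.

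The summed level of the 10 genes was 63.9 to 88.0 CPM in IVF hatched libraries, against 300.1 CPM in the unnumbered in vivo hatched library and 955 CPM in library 2. It was 75.02 to 95.9 CPM in IVF blastocysts and 74.0 and 106 CPM in in vivo blastocysts, and 102 to 122 CPM in 4-cell embryos, where LAMB1 alone made up 41.2% to 77.5% of the sum. The in vivo hatched libraries thus lay above all 11 others. In each of them 9 of the 10 genes passed 5 CPM, with SPARC as the exception, against 2 to 5 genes in an IVF hatched library.

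**Figure D1:**
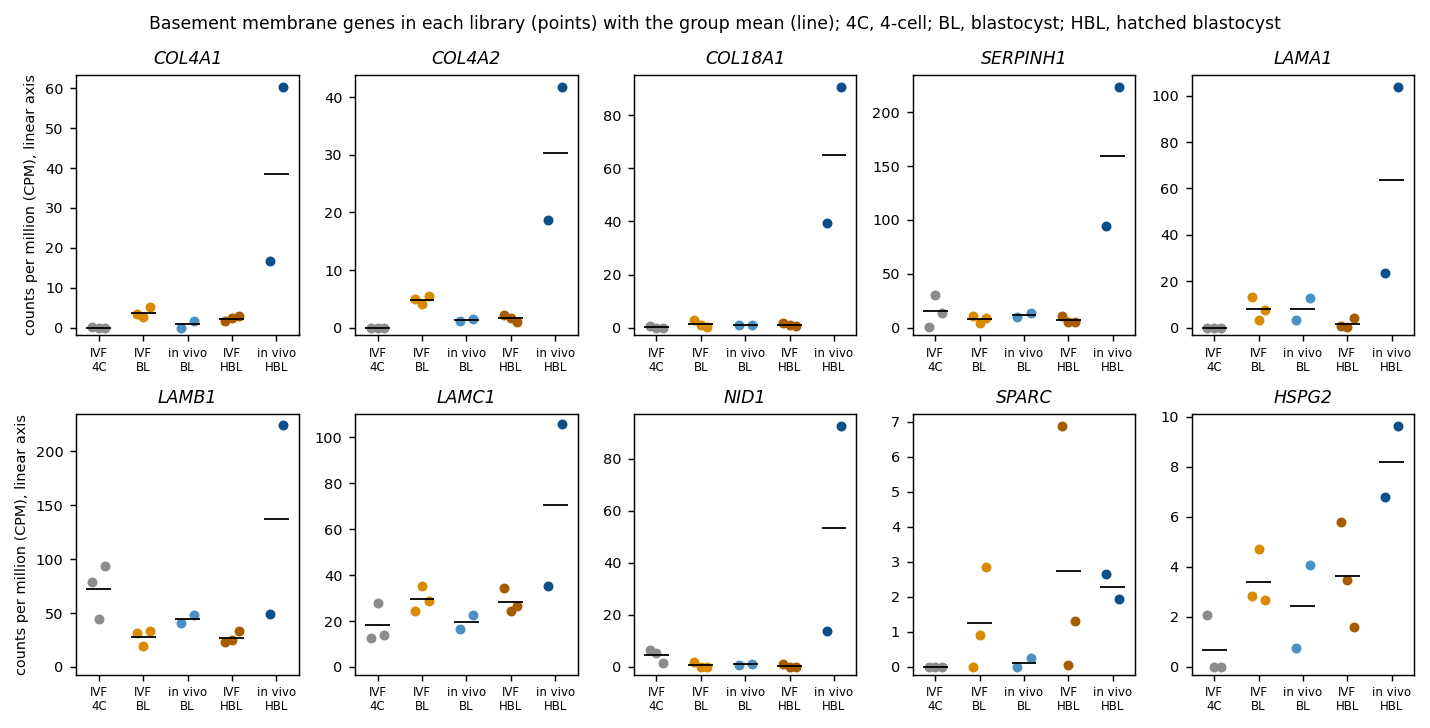
Level of each gene in every library (CPM, linear axis, 1 panel a gene). Points are libraries and lines are group means. In 9 panels both in vivo hatched libraries lie above all 3 IVF hatched libraries. SPARC is the exception, with its highest point, 6.88 CPM, in an IVF hatched library.

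COL4A1 and COL4A2 encode the alpha 1 and alpha 2 chains of type IV collagen, the main network collagen of basement membranes. In pig they lie side by side on chromosome 11 of Sscrofa11.1 (76858332 to 76997409 and 76996885 to 77161617), and their annotated spans share 525 bases, where a read could belong to either. COL4A1 had 1.54, 2.33 and 2.82 CPM in IVF hatched blastocysts, against 16.6 and 60.4 CPM in in vivo hatched blastocysts. The log2 fold change was -4.00 ± 0.96. Here and below, ± gives an approximate standard error (SE), the size of the fold change over the square root of edgeR's quasi-likelihood F statistic. It is thus drawn from the test statistic, and no test is read from it in hatched comparisons. COL4A2 had 2.16, 1.66 and 1.02 CPM in IVF hatched blastocysts, against 18.7 and 41.9 CPM in in vivo hatched blastocysts (-4.12 ± 0.44). The groups did not overlap for either chain.

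Before hatching the order of origins was the other way round. COL4A2 had 4.94, 4.10 and 5.52 CPM in IVF blastocysts, against 1.13 and 1.48 CPM in in vivo blastocysts, and it rose with a log2 fold change of 1.87 ± 0.46 (edgeR's quasi-likelihood test, adjusted p = 0.0261). Its log2 fold change stayed between 1.78 and 1.97 with any 1 of the 5 blastocyst libraries left out, but the call was lost in 4 of those 5 fits. Without in vivo blastocyst library 1 the adjusted p was 0.154, without in vivo library 2 it was 0.0632, and without IVF library 1 or 3 it was 0.0593 and 0.0571. It was also 0.313 in a fit of all 13 libraries and 0.0634 with the 5 blastocyst libraries alone. COL4A1 had 3.31, 2.66 and 5.06 CPM in IVF blastocysts, against 0 and 1.72 CPM in in vivo blastocysts. Its groups did not overlap either, but its log2 fold change of 2.14 ± 1.03 missed the threshold (adjusted p = 0.204), and it passed without in vivo library 2 (adjusted p = 0.00579), when the only in vivo library had no count.

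In embryos developed in vivo, hatched blastocysts held more of both chains than unhatched ones, with a log2 fold change of 5.45 ± 1.22 for COL4A1 and 4.44 ± 0.53 for COL4A2. In IVF embryos COL4A2 was lower in all 3 hatched libraries than in any blastocyst library (-1.55 ± 0.39), and COL4A1 overlapped (-0.69 ± 0.84). Thus COL4A2 was higher in hatched than in unhatched embryos in vivo and lower after IVF. That difference in direction was not tested. The ratio of COL4A1 to COL4A2 counts was 0.714, 1.41 and 2.76 in IVF hatched libraries, and 0.886 and 1.44 in in vivo hatched ones, so the ratio of the chains overlapped between origins.

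COL18A1 encodes type XVIII collagen, a basement membrane collagen with heparan sulfate chains whose C-terminal piece is endostatin (chromosome 13, 207907835 to 207984082). It had 1.60, 0.906 and 0.580 CPM in IVF hatched blastocysts, against 39.3 and 90.8 CPM in in vivo hatched blastocysts (-5.87 ± 0.71). In the blastocyst it was low in both origins, at 2.72, 1.11 and 0.412 CPM after IVF and 1.03 and 0.943 CPM in vivo, and did not pass the test (0.49 ± 0.67, adjusted p = 0.698). Its next highest group mean was 1.42 CPM, in IVF blastocysts. In vivo hatched blastocysts exceeded in vivo blastocysts by 5.94 ± 0.85 on the log2 scale, the largest such fitted difference among the 10 genes.

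SERPINH1 encodes HSP47, a chaperone of the endoplasmic reticulum that binds folded procollagen (chromosome 9, 9782939 to 9794485). It had 11.11, 5.15 and 4.86 CPM in IVF hatched blastocysts, against 94.0 and 224 CPM in in vivo hatched blastocysts (-4.40 ± 0.51). In blastocysts it had 11.03, 4.00 and 9.15 CPM after IVF and 9.60 and 13.2 CPM in vivo, and the groups overlapped (-0.52 ± 0.48, adjusted p = 0.528). Levels of different genes are set side by side in FPKM, fragment counts that the authors scaled for gene length and library size. On that scale SERPINH1 had rank 3 of the 10 genes in IVF hatched blastocysts (mean 3.21 FPKM), after LAMB1 and LAMC1, and rank 1 in in vivo hatched library 2 (102 FPKM), the only library of its group with an FPKM column used here. An annotated non-coding gene overlaps it, with no count in IVF hatched libraries and none and 45 counts in in vivo hatched ones.

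The laminin chains had 2 kinds of pattern. LAMA1, which encodes the alpha 1 chain of laminin-111, the early embryonic laminin (chromosome 6, 100332843 to 100468457), had 0.505, 0.466 and 4.25 CPM in IVF hatched blastocysts, against 23.7 and 104 CPM in in vivo hatched blastocysts (-5.12 ± 1.01). In blastocysts it had 13.1, 3.15 and 7.72 CPM after IVF, against 3.45 and 12.8 CPM in vivo. Those groups overlapped, with a log2 fold change of -0.01 ± 0.92 (adjusted p = 1). IVF hatched blastocysts had less LAMA1 than IVF blastocysts on average (-2.20 ± 0.87), but hatched library 3 lay above blastocyst library 2, so the ranges met.

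LAMB1 and LAMC1, the beta 1 and gamma 1 chains (chromosome 9, 107670120 to 107747242 and 124283668 to 124405967), were present in every library. LAMB1 had 23.2, 25.3 and 33.0 CPM in IVF hatched blastocysts, against 49.3 and 225 CPM in in vivo hatched ones (-2.22 ± 0.46). LAMC1 had 34.2, 24.6 and 26.3 CPM in IVF hatched blastocysts, against 35.2 and 106 CPM in in vivo hatched ones (-1.21 ± 0.37). Both rest on in vivo library 2. Without it LAMB1's difference was -0.84 and LAMC1's was -0.29, and the unnumbered library lay just above the highest IVF library for LAMC1. In blastocysts LAMB1 had 31.0, 19.3 and 33.6 CPM after IVF, against 40.7 and 47.8 CPM in vivo (-0.69 ± 0.46, adjusted p = 0.359). LAMC1 had 24.3, 35.1 and 28.9 CPM after IVF, against 16.4 and 22.5 CPM in vivo (0.58 ± 0.38, adjusted p = 0.346). The blastocyst ranges did not meet for either chain, but neither difference passed the test.

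LAMA1 also differed relative to LAMA5, which encodes the alpha 5 chain of later epithelial basement membranes. LAMA5 had 100 to 160 CPM in IVF hatched libraries, and 47.9 and 71.0 CPM in in vivo hatched ones. LAMA1 counts over LAMA5 counts, a ratio that can be set against the same ratio in other libraries, were 0.00503, 0.00344 and 0.0266 in IVF hatched libraries, against 0.495 and 1.46 in in vivo hatched ones. The groups were apart by more than 10 times. In blastocysts this ratio was 0.241, 0.0234 and 0.0844 after IVF and 0.0671 and 0.0926 in vivo, and the in vivo libraries lay inside the IVF range.

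Per length, LAMA1 made up 0.576%, 0.406% and 2.93% of the FPKM of LAMA1 to LAMA5 in IVF hatched libraries, against 63.6% in in vivo hatched library 2. The share was 21.2%, 2.70% and 9.09% in IVF blastocysts, against 7.16% and 9.87% in in vivo blastocysts. In 4-cell embryos LAMA1 was listed at 0, and LAMA2 held 47.3% to 77.3% of the alpha chains. LAMA5 was the most abundant alpha chain in all 8 blastocyst and IVF hatched libraries. The 63.6% rests on library 2 alone. The unnumbered in vivo hatched library, with no FPKM column used here, had LAMA1 over LAMA5 counts of 0.495, against 1.46 in library 2.

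LAMB1 counts over LAMC1 counts were 0.677, 1.03 and 1.25 in IVF hatched libraries, against 1.40 and 2.13 in in vivo hatched ones. In blastocysts the ratio was 1.28, 0.549 and 1.17 after IVF, against 2.49 and 2.13 in vivo. All 4 in vivo libraries therefore lay above all 6 IVF libraries of these stages, before and after hatching. In the 4-cell embryos the ratio was 6.15, 1.61 and 6.61. These ratios were not tested.

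**Figure D2:**
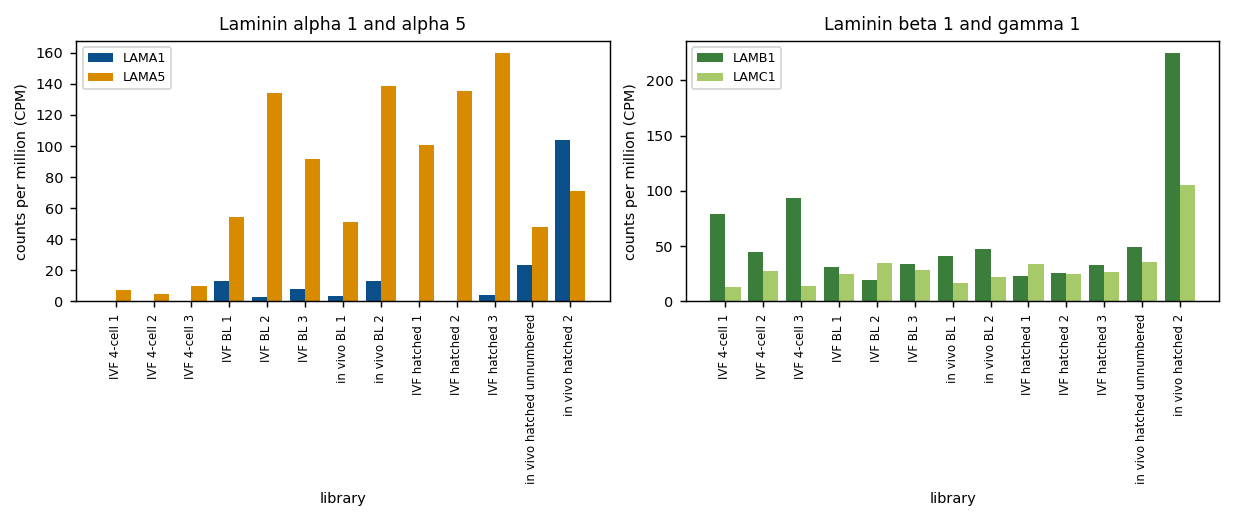
Laminin chain levels per library, in CPM on linear axes, with LAMA1 beside LAMA5 on the left and LAMB1 beside LAMC1 on the right. Bars are single libraries, and since CPM is not corrected for length they compare libraries, not genes. LAMA1 stands at 23.7 and 104 CPM in the in vivo hatched libraries and at most 4.25 CPM in the IVF hatched ones.

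NID1 and HSPG2 encode the linkers. NID1, nidogen 1, binds the laminin gamma 1 chain and type IV collagen (chromosome 14, 55239327 to 55346948). It had 1.01, 0 and 0.110 CPM in IVF hatched blastocysts, against 13.8 and 92.6 CPM in in vivo hatched blastocysts (-7.05 ± 1.63), the lowest fitted value of the 10. The IVF group held 40 counts in all, against 3940 in the in vivo group. In blastocysts NID1 had 1.88, 0 and 0.0550 CPM after IVF and 0.927 and 1.32 CPM in vivo, which overlapped (-0.80 ± 1.44, adjusted p = 0.775).

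HSPG2, perlecan (chromosome 6, 79849691 to 79958283), had 5.81, 3.47 and 1.60 CPM in IVF hatched blastocysts, against 6.78 and 9.64 CPM in in vivo hatched blastocysts (-1.08 ± 0.66). The ranges were apart by less than the IVF group's SD of 2.11 CPM. In blastocysts it had 2.83, 4.72 and 2.67 CPM after IVF and 0.772 and 4.07 CPM in vivo (0.53 ± 0.68, adjusted p = 0.677). Its span shares 621 bases with LDLRAD2, where reads could belong to either gene.

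SPARC encodes a calcium-binding glycoprotein that binds type IV collagen, and in the mouse it is abundant in parietal endoderm (chromosome 16, 71368164 to 71380972). It had 6.88, 0.0517 and 1.32 CPM in IVF hatched blastocysts, against 2.65 and 1.93 CPM in in vivo hatched blastocysts (0.32 ± 1.70). The in vivo libraries lay inside the IVF range, so SPARC did not share the pattern of the other 9 genes. In blastocysts it had 0, 0.903 and 2.86 CPM after IVF and 0 and 0.243 CPM in vivo (3.37 ± 2.06, adjusted p = 0.315). SPARC lies wholly inside the span of an annotated non-coding gene, which had no count in any library.

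Counted over the 10 genes, 9 were lower in every IVF than in every in vivo hatched library, against 24.4% of the 15528 genes of the fit. All 10 had passed the filter on low counts. Their median log2 fold change was -4.06, against 0.04 over all genes, and -3.19 without in vivo library 2. In in vivo embryos, all 10 were higher in both hatched than in both unhatched libraries, against 28.1% of all genes. These differences ran from 1.52 ± 0.52 for LAMB1 to 5.94 ± 0.85 for COL18A1 on the log2 scale, with 5.46 ± 1.78 for NID1, 3.72 ± 0.58 for SERPINH1 and 2.91 ± 1.07 for LAMA1. Their median was 3.96, or 3.32 without library 2, when that of LAMB1 was 0.14. The members were chosen by these values, so the counts describe them and support nothing.

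After IVF, 1 of the 10 genes, COL4A2, was lower in every hatched than in every unhatched library, against 6.21% of all genes. The median was -0.29, and it turned to 0.038 without IVF blastocyst library 1. The difference between the 2 hatching comparisons was not tested.

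**Figure D3:**
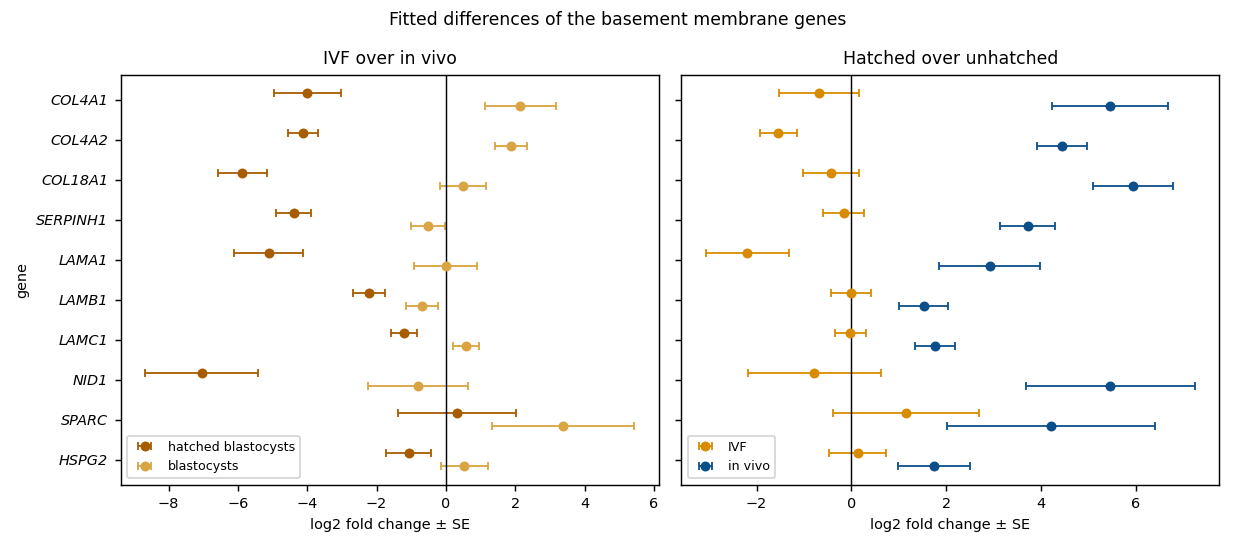
Fitted log2 fold changes with approximate standard errors, drawn from the F statistic, for each gene. IVF over in vivo is on the left and hatched over unhatched on the right. In hatched blastocysts 9 of the 10 points lie below 0, between -7.05 and -1.08, and SPARC lies at 0.32. In IVF embryos the hatched over unhatched points lie between -2.20 and 1.15.

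IVF and in vivo blastocysts were compared within the fit that also held the hatched libraries, though the contrast itself holds none. There 1 of the 10 genes (COL4A2) was called higher, against 6.09% of all genes. None was called lower by edgeR, against 4.74%. At an unadjusted p under 0.05 there was also none lower, and by DESeq2 1 was called higher and 0 lower. Over all genes 4255 of 15528 had an unadjusted p under 0.05. The members' median log2 fold change was 0.51, against 0.05 over all genes, with 6 genes above 0 and 4 below. A share of 1 in 10 is near that of all genes and is no result about the group. With the 5 blastocyst libraries alone, a fit chosen after seeing the data, 0 of the 10 were called. Over all 14397 genes of that fit, 630 were called higher and 513 lower.

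Between IVF blastocysts and 4-cell embryos, 4 of the 10 genes were called higher, against 25.7% of the 16312 genes tested, and 1 lower, against 30.6%. Read against those shares, the counts are no result about the group. The fit also held the IVF hatched libraries. With the 6 blastocyst and 4-cell libraries alone, chosen after seeing the data, 3 members were called, all higher. Over all 15528 genes of that fit, 3201 were called higher and 4540 lower. COL4A2, LAMA1 and SPARC had no count in any 4-cell library, and COL4A1 had 3 counts, all in library 1. The levels in IVF blastocysts were at least 54.3-fold higher for COL4A2 (adjusted p = 0.000377), at least 89.3-fold higher for LAMA1 (adjusted p = 0.00207) and at least 14.0-fold higher for SPARC (adjusted p = 0.0430), each against 3 counts per library.

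For COL4A1 the ratio of IVF blastocysts to 4-cell embryos was 124, with a 95% counting interval of 42.5 to 602 (adjusted p = 0.00176). Without 4-cell library 1, which held all 3 counts, the adjusted p was 0.000272 against a group with no count. SPARC had no count in IVF blastocyst library 1 either, and its adjusted p was between 0.0730 and 0.0978 when any 4-cell library, or IVF blastocyst library 2 or 3, was left out. COL4A1, COL4A2 and LAMA1 kept their calls without each library in turn.

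LAMB1 fell to 31.0, 19.3 and 33.6 CPM in IVF blastocysts, against 78.9, 44.5 and 93.4 CPM in 4-cell embryos (-1.15 ± 0.41, adjusted p = 0.0380). The ranges did not meet, but leaving out any IVF blastocyst library, or 4-cell library 3, gave an adjusted p of 0.0715 to 0.161, and it was 0.0649 with no filter on low counts and 0.0772 in a fit of all 13 libraries. A non-coding gene that overlaps LAMB1 had 35, 14 and 33 counts in IVF blastocysts, against 219, 558 and 553 in 4-cell embryos. Strand use in counting was not given in the sources used here, so reads of both genes cannot be told apart.

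The other members did not pass between these stages. LAMC1 had 24.3, 35.1 and 28.9 CPM in IVF blastocysts, against 12.8, 27.7 and 14.1 CPM in 4-cell embryos (0.93 ± 0.41, adjusted p = 0.0797), and it passed without 4-cell library 2 (adjusted p = 0.0158). SERPINH1 had 11.03, 4.00 and 9.15 CPM in IVF blastocysts, against a wide spread of 0.888, 30.7 and 13.4 CPM in 4-cell embryos (-0.72 ± 1.00, adjusted p = 0.567). The SERPINH1 difference was -1.16 without 4-cell library 1 (adjusted p = 0.104) and 0.31 without 4-cell library 2 (adjusted p = 0.823). In the 4-cell libraries SERPINH1 had 30, 1021 and 451 counts, and the non-coding gene that overlaps it had 177, 62 and 108. That gene had no count in IVF blastocysts. As for LAMB1, reads of both genes cannot be told apart. NID1 had 1.88, 0 and 0.0550 CPM in IVF blastocysts, against 6.37, 5.26 and 1.57 CPM in 4-cell embryos (-2.43 ± 1.95, adjusted p = 0.314), and the ranges met.

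HSPG2 had 2.83, 4.72 and 2.67 CPM in IVF blastocysts, against 2.07 CPM in 4-cell library 1 and no count in the other two. COL18A1 had 2.72, 1.11 and 0.412 CPM in IVF blastocysts, against 0.651 CPM in 4-cell library 1 and no count in the other two. With it, IVF blastocysts differed by 2.76 ± 1.69 for HSPG2 (adjusted p = 0.191) and by 3.14 ± 1.68 for COL18A1 (adjusted p = 0.141). Without that library the adjusted p was 0.000637 for HSPG2 and 0.00371 for COL18A1, against a group with no count. Over 4-cell embryos, blastocysts and hatched blastocysts from IVF, COL4A2 averaged 0, 4.86 and 1.61 CPM, and LAMA1 averaged 0, 7.98 and 1.74 CPM.

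In order of their mean CPM over the 5 groups, in vivo hatched blastocysts stood first for 9 genes and second for SPARC. The next group was IVF blastocysts for COL4A1, COL4A2, COL18A1 and LAMC1. It was 4-cell embryos for SERPINH1, LAMB1 and NID1, in vivo blastocysts for LAMA1 and IVF hatched blastocysts for HSPG2. LAMB1 was the only one of the 9 whose in vivo hatched range met that of the next group, since the unnumbered library, at 49.3 CPM, lay within the 4-cell range. Below that first step most neighbouring groups overlapped.

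The 2 in vivo hatched libraries differed from each other more for these genes than for most. Library 2 over the unnumbered library was 6.71 for NID1, 4.56 for LAMB1, 4.38 for LAMA1, 3.64 for COL4A1 and 2.997 for LAMC1, and between 2.23 and 2.38 for COL4A2, COL18A1 and SERPINH1. HSPG2 had 1.42 and SPARC 0.728. The median of the 10 was 2.69, against 1.02 over the 8253 genes with at least 5 CPM in the unnumbered library, whose upper quartile was 1.42. The summed hypoblast factors and receptor, 12 genes with no member among them, were 308 CPM in the unnumbered library and 960 CPM in library 2, so those transcripts moved with the matrix genes between the libraries. The summed trophectoderm markers lay the other way, with 32126 CPM in the unnumbered library and 20839 CPM in library 2. KRT8 alone held 27710 and 17271 CPM of those sums. Over that list, library 2 over the unnumbered library ran from 0.406 for TFAP2C to 1.42 for DAB2. DAB2 also stands in the list of yolk sac type carriers and endocytic receptors. The ratio was 0.510 for CDX2, 0.980 for GATA2 and 1.04 for TEAD4, the next highest after DAB2. The part of tissue proportions in the members' levels was not tested.

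**Figure D4:**
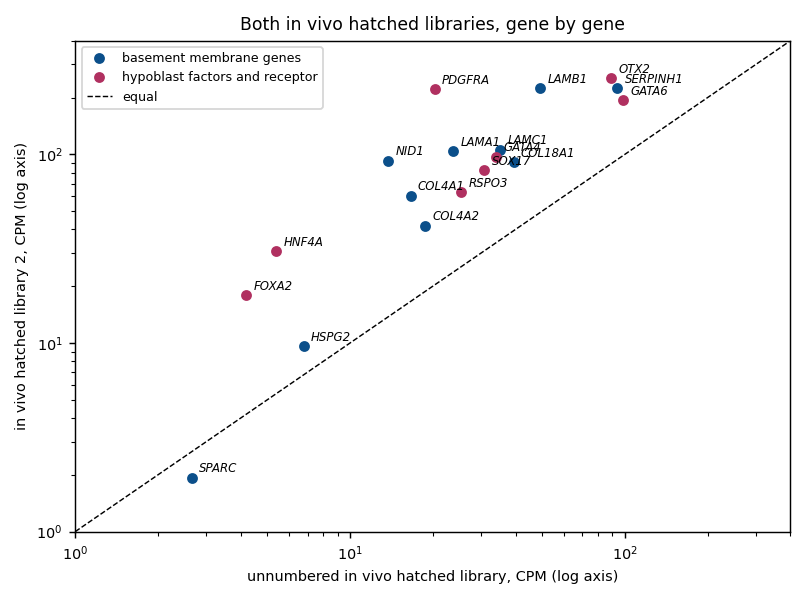
Level in library 2 against the unnumbered library of in vivo hatched blastocysts (CPM, log axes) for the basement membrane genes and for the hypoblast factors and receptor over 1 CPM in the unnumbered library. The dashed line marks equal levels. All points but SPARC lie above it, with NID1 at 6.71 times.

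Transcription factors, a receptor and secreted factors of the hypoblast were read beside these genes as a list, chosen with earlier results of these data known. Its calls in hatched blastocysts describe it and support nothing. Of 9 tested genes of that list, 6 were called lower in IVF than in in vivo hatched blastocysts (PDGFRA, SOX17, OTX2, RSPO3, GATA4 and HNF4A), against 4.88% of all genes, and none higher by edgeR, at an unadjusted p under 0.05 or by DESeq2, which called 7 lower. SOX17, an endoderm transcription factor, had 0.828 to 5.36 CPM in IVF hatched libraries, against 30.8 and 82.1 CPM in in vivo hatched ones. GATA6, which specifies primitive endoderm in the mouse, had 107 to 179 CPM in IVF hatched libraries and 98.6 and 194 CPM in in vivo hatched ones, a log2 difference of 0.08 ± 0.30. The calls of GATA4 and HNF4A were lost without in vivo hatched library 2 (adjusted p 0.126 and 0.349), and that of HNF4A also without IVF hatched library 1 or 3 (adjusted p 0.0672 and 0.0721). In blastocysts PDGFRA, the receptor that marks primitive endoderm in the mouse, fell to 1.86 to 3.49 CPM after IVF, against 11.12 and 14.6 CPM in vivo (-2.32 ± 0.66, adjusted p = 0.0446), and the call was lost without any 1 of the 5 blastocyst libraries (adjusted p 0.0744 to 0.133). PDGFRA, GATA6, RSPO3, AGRN, ITGB6, ITGA5, ITGAV, LAMA2, MIA2, P3H1, COLGALT1, P4HA1 and P4HA3 were named after their values were seen. So were ITGB3, PECAM1, TIE1, CLDN5, EMCN, LAMC3, STAR, TFAP2C, CDX2, GATA2 and TEAD4.

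The other basement membrane components were counted in the same way. Of 21 tested genes of that list 1 was called higher in IVF than in in vivo hatched blastocysts, against 6.96% of all genes, and edgeR called none lower (2 at an unadjusted p under 0.05, 0 by DESeq2). That gene was TINAGL1, a secreted matrix protein related to cathepsin B, with 158 to 303 CPM in IVF hatched libraries and 55.6 and 60.3 CPM in in vivo hatched ones. The list summed to 304 to 484 CPM in IVF hatched libraries, against 116 and 156 CPM in in vivo hatched ones. Most of that was TINAGL1 and LAMA5, and the 26 other genes summed to 18.9, 11.05 and 21.2 CPM in IVF hatched libraries, against 12.8 and 25.04 CPM in in vivo hatched ones, which overlapped. Of all 28 genes, some of which did not pass the filter on low counts, 6 were higher and 6 lower in every IVF than in every in vivo hatched library. The shares were 22.2% and 24.4% over the 15528 genes that did pass, which is an unlike base. LAMC3, a laminin gamma chain, was among the lower ones, with 0 to 0.595 CPM in IVF hatched libraries, against 1.40 and 3.08 CPM in in vivo hatched ones. TINAGL1 was also the only one called between in vivo hatched and unhatched blastocysts, where it was lower, against 7.39% of all genes. In IVF against in vivo blastocysts, edgeR called none of the 21. At an unadjusted p under 0.05, 2 were higher and 1 lower, and DESeq2 called 2 higher.

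Between IVF blastocysts and 4-cell embryos 3 of the 21 rose, namely TINAGL1, LAMA5 and AGRN, and 10 fell, against 25.7% and 30.6% of all genes. LAMA5 had 54.3 to 134 CPM in IVF blastocysts, against 4.75 to 9.88 CPM in 4-cell embryos (3.89 ± 0.51, adjusted p = 0.000371). LAMA2, an alpha chain known from muscle basement membrane, fell to 0.137 to 0.774 CPM in IVF blastocysts, against 29.8 to 39.7 CPM in 4-cell embryos (-5.87 ± 1.32, adjusted p = 0.00522). Of the 13 calls 9 were kept without each library in turn.

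Beside the chaperone SERPINH1 stand the enzymes and carriers that fold, modify or export collagen. Of 23 tested, 4 were called lower in IVF than in in vivo hatched blastocysts (MIA2, P3H1, COLGALT1 and P4HA1), against 4.88% of all genes, and each of the 4 lost its call without some single library. P4HA1, a prolyl 4-hydroxylase subunit, had 11.6 to 15.01 CPM in IVF hatched libraries, against 28.03 and 87.9 CPM in in vivo hatched ones. In blastocysts 1 of the 23 was called higher, against 6.09% of all genes, which is no result about the list. It was P4HA3, which rose after IVF (1.84 ± 0.49, adjusted p = 0.0358) and was not called without any 1 of the 5 libraries (adjusted p 0.0571 to 0.204).

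Among 21 tested receptors for basement membrane, 4 were called higher in IVF than in in vivo hatched blastocysts (BCAM, ITGB6, ITGA2 and CD151) and 2 lower (ITGAV and ITGA5), against 6.96% and 4.88% of all genes, and 5 of these 6 lost their call without some single library. BCAM, a receptor for laminins with the alpha 5 chain, had 4.97 to 9.71 CPM in IVF hatched libraries, against 0.455 and 1.34 CPM in in vivo hatched ones. In blastocysts 2 of the 21 were called higher and 1 lower, against 6.09% and 4.74% of all genes, which is no result about the list. ITGA2, a collagen-binding integrin subunit, rose to 2.58 to 5.75 CPM after IVF, against 0.438 and 0.755 CPM in vivo (2.62 ± 0.62, adjusted p = 0.0225). CD151, a tetraspanin partner of laminin-binding integrins, rose as well (1.44 ± 0.35, adjusted p = 0.0240), and ITGB3 was the one called lower. ITGB3 had no count in any IVF blastocyst library, against 0 and 1.19 CPM in in vivo blastocysts, so its call rests on in vivo library 2 (adjusted p = 1 without it). Each of these 3 calls was lost without some single library, ITGA2 and CD151 without in vivo library 1 (adjusted p 0.150 and 0.132).

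TIMP3, from the list of matrix proteases and inhibitors, rose in IVF relative to in vivo blastocysts, where 6.09% of all genes were called higher. TIMP3, a matrix-bound inhibitor of metalloproteinases, had 268 to 419 CPM in IVF blastocysts, against 127 and 175 CPM in in vivo blastocysts (1.26 ± 0.26, adjusted p = 0.0137). Without in vivo library 1 its adjusted p was 0.118.

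Markers of other cell types were read beside these values. The 12 genes of stroma and interstitial matrix summed to 1.94 to 2.13 CPM in IVF hatched libraries, against 1.85 and 8.97 CPM in in vivo hatched ones, where COL1A1, LUM, POSTN and FBN1 had no count. The 8 endothelial genes summed to 2.35 to 6.29 CPM in IVF hatched libraries, against 14.5 and 54.3 CPM in in vivo hatched ones. Most of the in vivo sum was PECAM1, at 10.97 and 49.6 CPM. TIE1 had 1.31 and 3.35 CPM there, CLDN5 2.02 and 1.29 CPM, and EMCN 0.228 and 0 CPM. CDH5, KDR, TEK and VWF had no count in either in vivo hatched library. Oviduct and uterine epithelium markers summed to 4.08 to 12.6 CPM in IVF hatched libraries, against 1.31 and 2.06 CPM in in vivo hatched ones, and blood and immune markers to 7.01 to 14.7 CPM in IVF and 4.76 and 16.7 CPM in in vivo hatched libraries. Cumulus and granulosa markers summed to 49.7 to 151 CPM in IVF hatched libraries, against 27.2 and 44.4 CPM in in vivo hatched ones, and FSHR, INHA, TNFAIP6 and AMH had no count in either group. Nearly all of that was STAR, a cholesterol carrier of steroid-making cells, the only one of the 7 genes with a count in IVF hatched libraries and at 27.0 and 44.3 of the in vivo CPM. The part of such cells in the members' levels was not tested.

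The genes most like the members over all 13 libraries were ranked by Pearson's r of log2(CPM + 1) with the mean of the members' standardised values, among 10595 other genes with a mean of at least 5 CPM in some group and a proper symbol. The first 8 were CDH2 (0.97), FLRT3 (0.96), SOX17 (0.96), MME (0.96), ALPL (0.95), FSCN1 (0.95), SLC51A (0.95) and CEACAM18 (0.94). CDH2, N-cadherin, had 1.66, 0 and 0.221 CPM in IVF hatched blastocysts, against 30.0 and 158 CPM in in vivo hatched blastocysts. Among the members themselves r with that mean was 0.95 for COL18A1, 0.95 for COL4A1 and 0.93 for COL4A2, and lowest for SPARC (0.54) and LAMB1 (0.50). These values describe 13 libraries that share depth and stage, and the in vivo hatched libraries carry most of the range.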

How the data were processed

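Whole-embryo pools in 5 groups (13 libraries) were sequenced. Per the labels' protocols, poly(A) RNA was read as pairs. The authors deposited raw counts, FPKM (scaled by length and library size) and TPM per gene on Sscrofa11.1, per the file headers. The deposited counts are whole numbers, and 14 of the 39 value columns were left out, the 13 TPM columns and the FPKM column of 1 in vivo hatched library. The tools RSEM, HISAT2, Bowtie2, StringTie 1.3.1 and fastp 0.18.0 appear in the submitters' processing notes without their roles. How shared reads were split was not given in the sources used here. Positions come from the RefSeq gene table of Sscrofa11.1.

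Deposited counts were scaled to CPM by library total, without other factors. Differences were fitted with edgeR 4.0.16 (R 4.3.3, TMM factors, its filter on low counts, quasi-likelihood test, Benjamini-Hochberg adjustment over all genes tested). The 10 blastocyst and hatched libraries formed one fit (15528 genes) and the 9 IVF libraries another (16312 genes). A call is an adjusted p under 0.05. The 24 rows with no gene number (rRNA and tRNA, 0.0171% to 0.112% of a library) were kept in the totals and the fits. DESeq2 1.42.0, RLE factors, no filter, a replicate block, other sets of libraries and each library left out were alternatives. The fitting code was also run on simulated counts with the same spread for every gene. That setting is simpler than these libraries, so no result here rests on it.

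The 10 members, the 13 other lists and the tests were chosen with earlier results of these data known. The named genes are the members, up to 4 members of each other list called in a tested comparison by smallest p (or the 2 of highest level), and the 8 genes most like the members. A result that this rule would name is not reported here. FPKM served for levels between genes and for ratios, as description.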

Additional observations from a re-analysis of the deposited data

Results flagged for a closer look

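COL4A1, COL4A2 and LAMC1 differed between origins in opposite directions at the 2 stages, with every IVF library below every in vivo library in hatched blastocysts and above in blastocysts. The log2 fold change of IVF over in vivo was -4.00 in hatched and 2.14 in unhatched blastocysts for COL4A1, -4.12 and 1.87 for COL4A2, and -1.21 and 0.58 for LAMC1. For LAMC1 the hatched ranges were barely apart, with 34.2 CPM in the highest IVF and 35.2 CPM in the lower in vivo library. Its hatched difference rests on in vivo library 2. Of the blastocyst values that of COL4A2 passed the test, and its call was lost when some single libraries were left out.

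COL4A2 also moved in opposite directions with hatching, with a log2 fold change of -1.55 in IVF and 4.44 in in vivo embryos. None of these differences of differences was tested. No group has 4 or more libraries, so no value of a single library was tested against the others of its group.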

How the results depend on the processing

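Between IVF and in vivo blastocysts 1 of 10 members was called. The count was 3 with no filter on low counts (COL4A1, COL4A2 and SPARC), and 0 in a fit of all 13 libraries or of the 5 blastocyst libraries alone (that last fit chosen after seeing the data). It was 0 to 1 with a library left out. Under a replicate block it was 0 (COL4A2 adjusted p = 0.0505). Same-numbered libraries had correlations of deviations from their group means between -0.282 and 0.0506. Differently numbered libraries were not compared in this way, so whether the numbers pair libraries was not tested.

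Between IVF blastocysts and 4-cell embryos 5 members were called, 3 with those 6 libraries alone (chosen after seeing the data), and 3 to 6 with a library left out. The median member log2 fold change of IVF hatched over unhatched blastocysts was -0.29, and -0.758 to 0.038 with a library left out. That of IVF hatched blastocysts over 4-cell embryos was 2.81, 4.45 under the replicate block and 2.26 to 8.65 with a library left out. The medians of the other comparisons stayed between -4.59 and -3.19 (IVF over in vivo hatched) and between 3.32 and 4.28 (in vivo hatching) with a library left out. The cause of these shifts was not tested. With 2 or 3 libraries a group, and members under 5 CPM in most libraries, counting error and spread limit the low genes most.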
